A study of Sus scrofa with 8 samples.

Results

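Transcripts of the core circadian clock, ARNTL, CLOCK, PER1, PER2, PER3, CRY1, CRY2, NR1D1, DBP and TEF, were followed in RNA of pig hearts. Of these 10 genes, 8 were found by gene name among the 18975 genes of the expression table, in 9 rows, because CLOCK has 2 rows. DBP carries no name in the table and was found by its gene ID. A row named BMAL1, which is another symbol of ARNTL, starts 696 bases after the end of the ARNTL row and was described beside it. TEF was not analysed here. In all, 11 rows of 9 genes are described, and all 11 rows passed the filter on low values, at least 1 FPKM in at least 2 libraries.

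Hearts came from male Tibetan and Yorkshire pigs of 6 months of age, raised in the highlands of Linzhi in Tibet (TH for Tibetan, YH for Yorkshire) or in the lowlands of Beijing (TL and YL). Each of the 4 groups has 2 libraries, and RNA of 4 pigs was pooled in each library, so replicate spread here is that of pools, not of animals, and the p-values measure only that spread. Levels are in FPKM, a fragment count divided by transcript length and scaled per library by the authors. That scaling did not simply follow the reads on genes, which were 26723000 in TH1 and 22800000 in TL2. PER1 was at 48.8 FPKM from 3364 reads in TH1 and at 51.8 FPKM from 6331 reads in TL2. The chamber of the heart sampled and the time of day at which the pigs were slaughtered are not given in the sources used here. A difference in sampling time between groups or pools can therefore not be told apart from a difference of breed or altitude in genes whose level changes over the day.

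The libraries hold 15687000 to 26723000 reads on genes. Of 12 markers of heart muscle found in the table, all 12 were at 1 FPKM or more in every library, and their summed level was 16650 FPKM in YL2 and 26317 to 44437 FPKM in the other 7 libraries. MYH7, MYL2 and ATP2A2, which define heart muscle too, were not found by name. Kidney markers summed to 0.832 to 17.5 FPKM in 7 libraries and to 8989 FPKM in YL2, where all 17 marker rows were at 1 FPKM or more. TH1 had the most FPKM on mitochondrial genes, 87.6% of its sum (57.7% to 80.3% in the other libraries), the highest FPKM sum and the fewest genes at 1 FPKM or more, 10233 (10661 to 12027 in the others). YL2 and TH1 therefore stand apart, and values without them are given beside several comparisons that they moved. In bulk RNA of this kind, fewer cells of a type and less RNA per cell cannot be told apart. The descriptions of YL1 and YL2 point to data of TL, against their titles and breed, and both were taken as YL by title.

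The circadian clock of a mammalian cell is a loop of transcription. CLOCK and ARNTL (also called BMAL1) form a dimer that activates PER and CRY genes, NR1D1 and DBP, the PER and CRY proteins then inhibit that dimer, and NR1D1 (REV-ERB alpha) represses ARNTL. In heart, as in other peripheral tissues, transcripts of ARNTL and of DBP or PER genes peak at opposite times of the day, and the loop sets daily rhythms of metabolism and of ion channels.

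The clock genes covered a wide range of levels. PER1 had the highest mean FPKM, 46.3, followed by NR1D1 at 31.5 and CRY2 at 19.5, and these 3 rows exceeded 93.5%, 91.0% and 86.5% of the genes listed. The other 8 rows had means of 0.926 (PER3) to 2.40 FPKM (CRY1), near the middle of the table. The ranges over the 8 libraries of PER1 (26.5 to 64.0 FPKM), NR1D1 (23.0 to 43.7) and CRY2 (10.04 to 32.0) overlapped, and so did those of the 8 lower rows. Within a library the order was firmer for some pairs: PER1 was above CRY2 and CRY1 above PER3 in all 8 libraries, PER1 above NR1D1 in 7 of 8. Reads behind a value differed strongly between the genes. PER1 rested on 2963 to 6331 reads per library, but NR1D1, at a similar FPKM, on only 127 to 222, since reads per FPKM of its row were 0.137 times those of the median gene. The first CLOCK row rested on 11 to 68 reads.

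**Figure D1:**
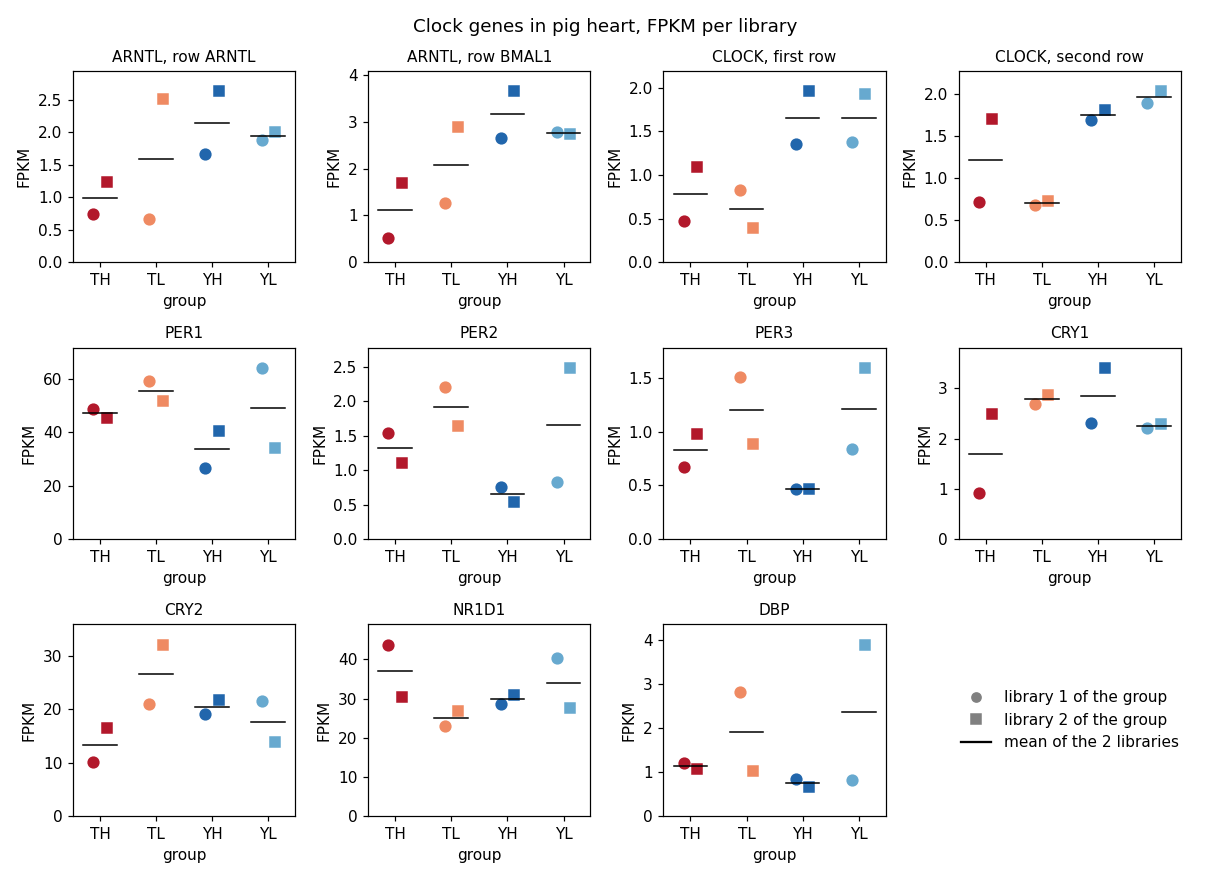
FPKM of each clock gene row in the 8 libraries, with 1 panel per row and its own linear axis from 0, points for the pools and a bar for the mean of each group. Pools of a group lie far apart for ARNTL in TL (0.657 and 2.51 FPKM) and for DBP in YL (0.822 and 3.89 FPKM).

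ARNTL encodes the partner of CLOCK in the activating dimer. Its row (ENSSSCG00000013396, Sscrofa10.2 chromosome 2, 49291903 to 49316939) was at 0.741 and 1.24 FPKM in the TH pools, 0.657 and 2.51 in the TL pools, 1.66 and 2.63 in the YH pools and 1.88 and 2.0 in the YL pools. TL1 and TH1 were the lowest libraries and YH2 and TL2 the highest, so the lowest and a top library came from the same group. The 22 reads in TL1 give a 95% Poisson interval of 0.412 to 0.995 FPKM, and the 96 reads in TL2 one of 2.04 to 3.07. These intervals cover counting error only. The neighbouring BMAL1 row (ENSSSCG00000013397, chromosome 2, 49317636 to 49340140) was at 0.511 and 1.70 FPKM in the TH pools, 1.26 and 2.89 in the TL pools, 2.66 and 3.65 in the YH pools and 2.79 and 2.73 in the YL pools. It ordered the libraries much as the ARNTL row did, with YH2 and TL2 highest and TH1 and TL1 lowest. Reads of the 2 rows together numbered 35 and 71 in the TH pools, 55 and 183 in the TL pools, 125 and 191 in the YH pools and 106 and 191 in the YL pools.

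CLOCK, the other partner in the dimer, was lower in the Tibetan libraries in its first row. That row (ENSSSCG00000008909, chromosome 8, 58659341 to 58698260) was at 0.474 and 1.09 FPKM in the TH pools, 0.830 and 0.390 in the TL pools, 1.35 and 1.96 in the YH pools and 1.38 and 1.93 in the YL pools. All 4 Tibetan libraries (0.390 to 1.09 FPKM) lay below all 4 Yorkshire libraries (1.35 to 1.96), a comparison chosen after the values were seen, and 8.03% of the genes tested separate the 4 libraries of each breed in either direction. The only clock gene row of the 11 that did so was this one, which is close to that share. Its 95% Poisson intervals overlapped between the breeds. They were 0.683 to 1.65 FPKM in TH2 (22 reads), 0.933 to 1.90 in YH1 and 0.911 to 2.01 in YL1. The second CLOCK row (ENSSSCG00000008911, chromosome 8, 58740012 to 58753479), 41751 bases further on, was at 0.719 and 1.71 FPKM in the TH pools, 0.677 and 0.735 in the TL pools, 1.69 and 1.81 in the YH pools and 1.89 and 2.04 in the YL pools. There TH2 reached the lowest Yorkshire library, and the other 3 Tibetan libraries lay below all Yorkshire libraries. Reads of both CLOCK rows together were 35 and 71 in the TH pools, 44 and 40 in the TL pools, 90 and 105 in the YH pools and 77 and 163 in the YL pools.

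PER1, a repressor of the loop that is also induced directly by stress signals and glucocorticoids, had the most reads of the members. Its row (ENSSSCG00000017983, chromosome 12, 55836901 to 55851908) was at 48.8 and 45.4 FPKM in the TH pools, 59.2 and 51.8 in the TL pools, 26.5 and 40.5 in the YH pools and 64.0 and 34.1 in the YL pools. The 4 Tibetan libraries lay within 45.4 to 59.2 FPKM, and the Yorkshire libraries spread below and above them, from YH1 to YL1.

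PER2, another repressor, ordered the libraries differently. Its row (ENSSSCG00000016338, chromosome 15, 152264831 to 152286818) was at 1.54 and 1.10 FPKM in the TH pools, 2.20 and 1.63 in the TL pools, 0.758 and 0.540 in the YH pools and 0.824 and 2.48 in the YL pools. YL2 and TL1 were highest, YH2 and YH1 lowest, and the pools of YL differed by a factor of 3.01. PER3 (ENSSSCG00000028572, unplaced scaffold GL893685.1, 34089 to 91114), the third of the family, was at 0.669 and 0.983 FPKM in the TH pools, 1.51 and 0.888 in the TL pools, 0.464 and 0.467 in the YH pools and 0.835 and 1.59 in the YL pools. Again YL2 and TL1 were the highest libraries and both YH libraries the lowest.

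CRY1 and CRY2 encode the cryptochromes, which bind the dimer and block it. CRY1 (ENSSSCG00000000164, chromosome 5, 13127781 to 13215788) was at 0.919 and 2.48 FPKM in the TH pools, 2.69 and 2.88 in the TL pools, 2.30 and 3.40 in the YH pools and 2.21 and 2.30 in the YL pools. TH1, which stands apart by its mitochondrial share, was low, and the other 7 libraries lay within 2.21 to 3.40 FPKM. CRY2 (ENSSSCG00000013270, chromosome 2, 17893140 to 17916392) was at 10.04 and 16.5 FPKM in the TH pools, 21.0 and 32.0 in the TL pools, 19.0 and 21.8 in the YH pools and 21.5 and 13.9 in the YL pools. TH1 was lowest here too, then YL2, and TL2 was highest.

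NR1D1, the nuclear receptor that represses ARNTL, varied least of the 11 rows, by a factor of 1.90 over the libraries. Its row (ENSSSCG00000017481, chromosome 12, 22489119 to 22502041) was at 43.7 and 30.4 FPKM in the TH pools, 23.0 and 26.9 in the TL pools, 28.7 and 31.0 in the YH pools and 40.5 and 27.7 in the YL pools. TH1 and YL1 stood above the other 6 libraries, which lay within 23.0 to 31.0 FPKM.

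DBP, an output factor that binds D-box elements, varied by a factor of 6.00 over the libraries. Its row (ENSSSCG00000003148, chromosome 6, 49734282 to 49740069) was at 1.20 and 1.07 FPKM in the TH pools, 2.82 and 1.02 in the TL pools, 0.836 and 0.649 in the YH pools and 0.822 and 3.89 in the YL pools. YL2 and TL1 stood out, each from the other pool of its own group. In YL the pools differed by a factor of 4.74, with counting intervals of 0.515 to 1.24 FPKM in YL1 and 3.35 to 4.49 in YL2. In TL they differed by a factor of 2.75, with intervals of 2.28 to 3.45 FPKM in TL1 and 0.735 to 1.39 in TL2. The other 6 libraries lay within 0.649 to 1.20 FPKM.

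**Figure D2:**
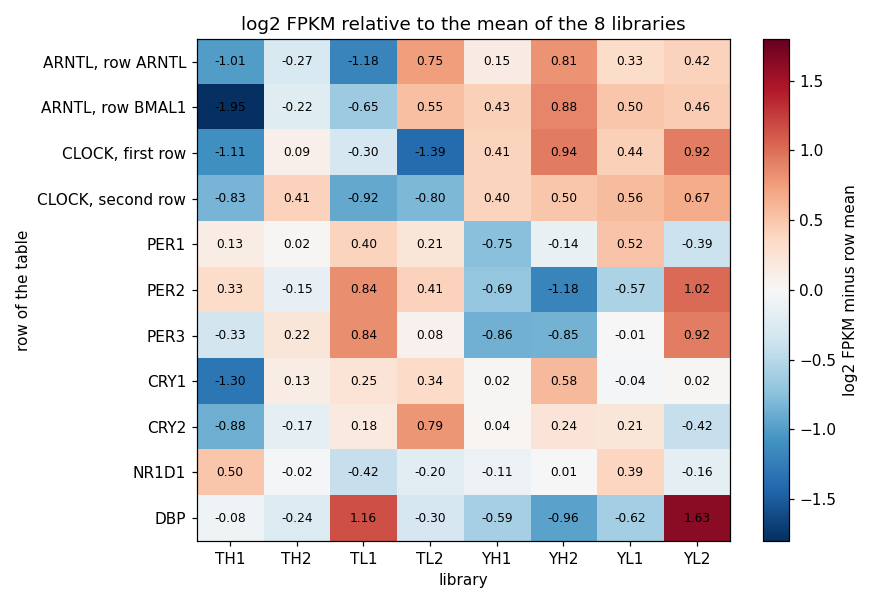
Each row's log2 FPKM minus its mean log2 FPKM over the 8 libraries, as colour and number, with libraries as columns. PER2, PER3 and DBP are highest in YL2 and TL1, and both rows of ARNTL are highest in YH2 and TL2.

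The spread between pools of a group was thus as large as that between groups for several clock genes. In 6 of the 11 rows (both rows of ARNTL, PER1, PER2, CRY1 and DBP), the largest fold between the pools of a group exceeded the largest fold between group means. The share of all genes that do so was not computed, and averaging pools narrows the folds between group means. The count therefore describes these rows only. Without YL2 the count was 4, since PER1 (1.53 against 1.91) and PER2 (1.4 against 2.95) left it. For ARNTL these folds were 3.83 (in TL) and 2.16. For DBP they were 4.74 (in YL) and 3.17. For NR1D1 and PER2 they were nearly alike, 1.46 against 1.48 and 3.01 against 2.95. Both CLOCK rows (2.30 against 2.72 and 2.37 against 2.78), CRY2 (1.64 against 2.0) and PER3 (1.91 against 2.61) were on the other side.

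PER2, PER3 and DBP shared their highest 2 libraries, YL2 and TL1, which were not those of ARNTL. Over the 8 libraries, the Pearson r of log2(FPKM + 1) of DBP was 0.90 with PER3 and 0.89 with PER2, and 99.7% and 99.6% of the genes tested had a lower r with DBP. Without YL2 these r were both 0.86. With DBP, ARNTL had an r of -0.32 over 8 libraries and of -0.75 without YL2, where DBP and ARNTL were both above their middle. Of the genes tested, 24.9% had a lower r with ARNTL than DBP did over the 8 libraries. The BMAL1 row had an r of -0.22 with DBP, and of -0.58 without YL2. The ARNTL and BMAL1 rows had an r of 0.92 with each other. CRY1 (0.59), CRY2 (0.56) and the second CLOCK row (0.52) followed, and NR1D1 (-0.08) and PER1 (-0.28) showed little likeness to ARNTL. PER2 had an r of -0.39 with ARNTL, and of -0.64 without YL2, and PER3 one of -0.30, and of -0.54 without YL2. Over the 8 libraries, 19.8% and 26.7% of the genes tested had a lower r with ARNTL than PER2 and PER3. Such shares were not computed without YL2. These r describe 8 libraries that share depth and scaling for all genes.

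**Figure D3:**
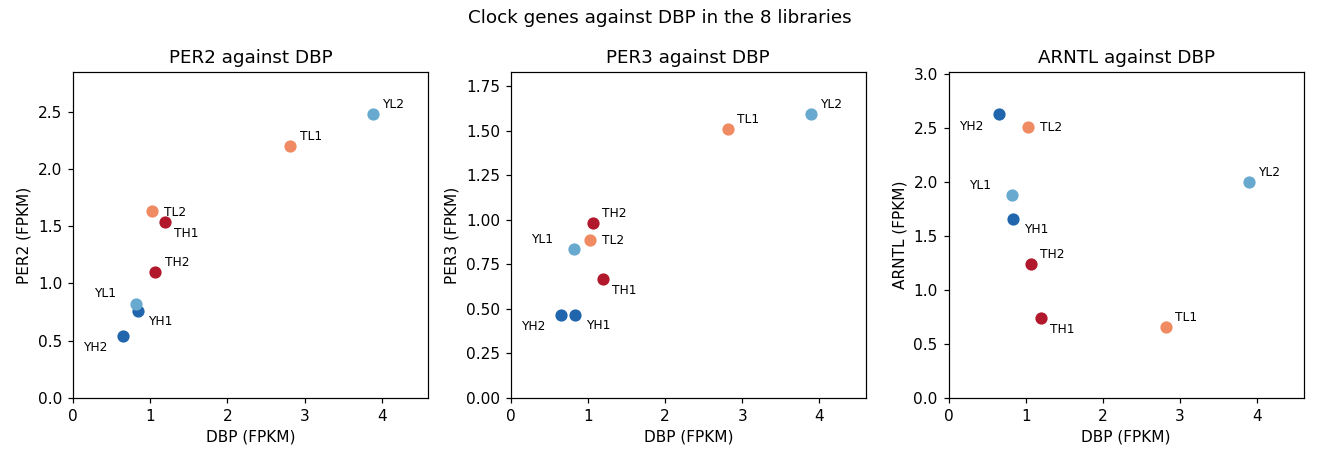
FPKM of PER2, PER3 and ARNTL against the FPKM of DBP, with linear axes from 0 and 1 labelled point per library. PER2 and PER3 lie high where DBP is high (TL1 and YL2), while ARNTL is at 0.657 FPKM in TL1 and at 2.0 FPKM in YL2.

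A ratio of 2 genes in the same library does not depend on how libraries are scaled. The log2 ratio of PER2 to ARNTL was 1.05 and -0.17 in the TH pools, 1.74 and -0.62 in the TL pools, -1.13 and -2.28 in the YH pools and -1.19 and 0.31 in the YL pools. That of PER3 to ARNTL was -0.15 and -0.33 in the TH pools, 1.20 and -1.50 in the TL pools, -1.84 and -2.49 in the YH pools and -1.17 and -0.33 in the YL pools. That of DBP to ARNTL was 0.69 and -0.21 in the TH pools, 2.1 and -1.29 in the TL pools, -0.99 and -2.02 in the YH pools and -1.19 and 0.96 in the YL pools. All 3 ratios were highest in TL1 and lowest in YH2, so the full range of the repressors and of the output gene against the activator lay between a lowland Tibetan and a highland Yorkshire pool. TL2, from the same group as TL1, lay near the Yorkshire pools. Against the BMAL1 row the highest library was TH1 for all 3 genes, with log2 ratios of 1.59 (PER2), 0.39 (PER3) and 1.23 (DBP), and YH2 was still the lowest.

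NR1D1 and PER1 gave the same kind of ratio at a higher level. NR1D1 to ARNTL was 5.88 and 4.62 on the log2 scale in the TH pools, 5.13 and 3.42 in the TL pools, 4.11 and 3.56 in the YH pools and 4.43 and 3.79 in the YL pools. PER1 to ARNTL was 6.04 and 5.20 in the TH pools, 6.49 and 4.37 in the TL pools, 3.999 and 3.95 in the YH pools and 5.09 and 4.09 in the YL pools. In both, TH1, TH2 and TL1 lay above the 4 Yorkshire libraries and TL2 did not.

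**Figure D4:**
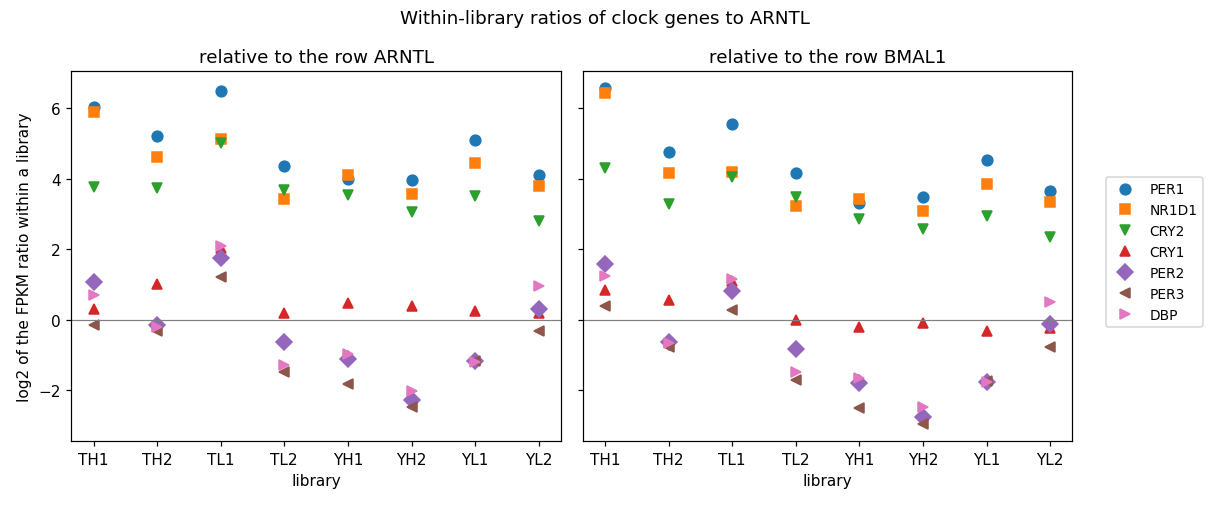
Log2 ratios of clock genes to the ARNTL row (left) and to the BMAL1 row (right) within each library, with libraries along the horizontal axis and a colour and marker per gene. On the left, TL1 and TL2 lie far apart, at 2.1 and -1.29 for DBP.

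Whether clock genes differed between breeds at the same altitude, or between altitudes in the same breed, was tested with limma on log2(FPKM + 1) in 1 fit of all 8 libraries. Called means a Benjamini-Hochberg adjusted p under 0.01 over the 11913 genes tested together with a log2 fold change beyond 1 in either direction. No clock gene row was called in a comparison, and the counts at an unadjusted p under 0.05 are given below. The test has little room at 2 pools per group: 0.0336% of all genes tested were called from TH to YH, 0.00839% from TL to YL, 0.0504% from TH to TL and 0.0% from YH to YL. An exact permutation test of 2 against 2 libraries cannot give a two-sided p under 0.333.

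Between the breeds in the highlands, TH to YH, the BMAL1 row of ARNTL had the lowest p. Its log2 fold change was -1.03 (SE 0.37, unadjusted p = 0.0281, limma adjusted p = 0.257), and the adjusted p was 0.0840 to 0.722 over the alternatives. It was 1 of 11 rows at an unadjusted p under 0.05, against 16.2% of all genes. The ARNTL row had -0.65 (SE 0.38), and the reads of both rows summed, a setting chosen after seeing the data, gave -1.29 (SE 0.56, limma adjusted p = 0.331). In 8 of the 11 rows the TH and YH libraries did not overlap, with 52.5% of all genes doing the same. Of these 8, PER1, PER2, PER3 and DBP lay above in TH and both ARNTL rows, the first CLOCK row and CRY2 below. Log2 fold changes of the 4 rows above were 0.51 (PER1), 0.49 (PER2), 0.31 (PER3) and 0.29 (DBP), none past the test. PER1 was at 0.21 without YH1 and at 0.81 without YH2, and PER3 at 0.19 without TH2. CRY1, whose groups overlap, had -0.56 (SE 0.32), and -0.13 without TH1. The median over the 11 rows was -0.35, but -0.04 over the 10 rows without the BMAL1 row, which counts ARNTL again, beside -0.03 over all genes tested. With each library scaled to the same FPKM sum, the values of PER1, NR1D1 and DBP turned to -0.42, -0.62 and -0.05 and the median of all genes moved by -0.47. Without TH2, 5 rows had an unadjusted p under 0.05, all lower in TH: the BMAL1 row, both CLOCK rows, CRY1 and CRY2, but in that fit 29.2% of all genes did too. Without TH1, YH1 or YH2 there were 0 such rows, against 9.17%, 7.33% and 8.85% of all genes, and the BMAL1 row came to -0.61 without TH1. Pseudocounts of 0.1 and 0.01 gave that row -1.62 and -1.73.

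In the lowlands, TL to YL, the rows with the lowest p were those of CLOCK, with all TL pools below all YL pools. The log2 fold change was -0.73 (SE 0.28, unadjusted p = 0.0365, limma adjusted p = 0.509) in the first row and -0.80 (SE 0.26, unadjusted p = 0.0178, limma adjusted p = 0.415) in the second. With pseudocounts of 0.1 and 0.01 they were -1.36 and -1.50 in the first row and -1.36 and -1.46 in the second, since the scale used shrinks folds of such low rows. Over the alternatives the adjusted p of each row was 0.161 to 1.0. These were 2 of 11 rows at an unadjusted p under 0.05, against 8.94% of all genes. Summed over both rows, reads of CLOCK gave -1.47 (SE 0.44, limma adjusted p = 0.351). Groups did not overlap in 4 of 11 rows, with 41.5% of all genes doing so, namely both CLOCK rows and NR1D1 (below in TL) and CRY1 (above). NR1D1 had -0.41 (SE 0.28), and -0.68 without YL2 and -0.15 without YL1. CRY1 had 0.22 (SE 0.32), which turned to -0.05 with FPKM-sum scaling. Without YL2, the library with kidney markers, the values for CLOCK were -0.58 and -0.76, only the second row kept an unadjusted p under 0.05, as 9.72% of all genes had, and PER2 came to 0.67 (unadjusted p = 0.0409, limma adjusted p = 0.492) from 0.20 with it. DBP came to 0.61 without YL2 from -0.10 with it, and PER1 to -0.20 from 0.24. Without YL1 they went the other way, DBP to -0.82, PER2 to -0.26 and PER1 to 0.68. Without TL1, YH1 or YH2 there was 1 row at an unadjusted p under 0.05, against 4.03%, 6.82% and 6.82% of all genes, and without TL2 there were 0, against 4%.

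**Figure D5:**
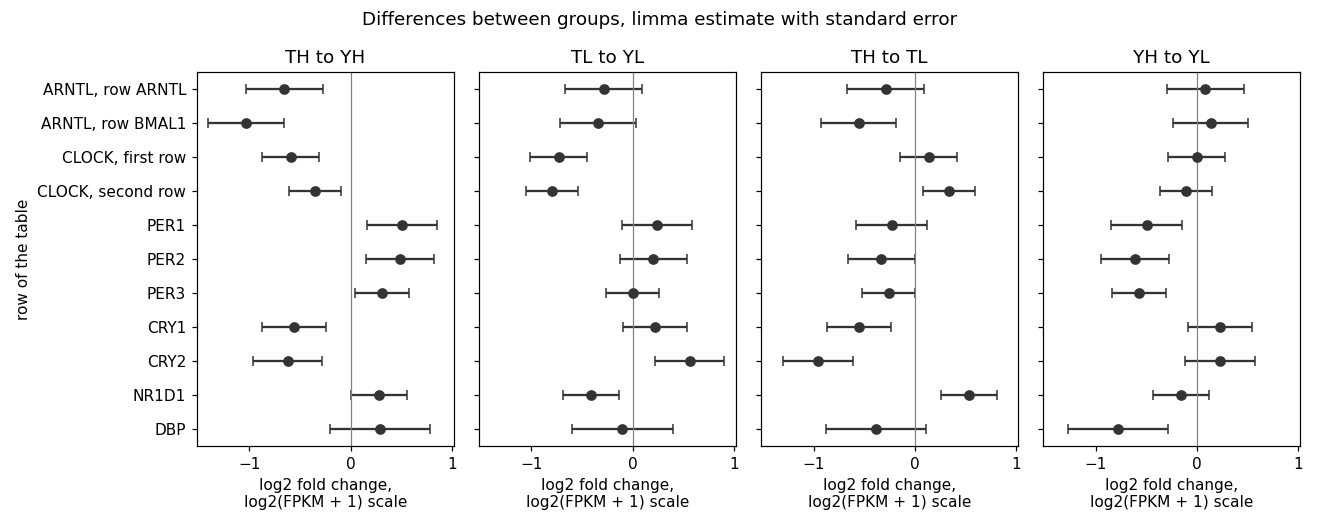
Log2 fold changes of the 11 rows on the log2(FPKM + 1) scale in the 4 comparisons, first group minus second, with points for the limma estimate and bars for its standard error. CLOCK lies at -0.73 and -0.80 from TL to YL and CRY2 at -0.96 from TH to TL.

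Between altitudes in Tibetan pigs, TH to TL, CRY2 had the lowest p, with both TH pools below both TL pools. Its log2 fold change was -0.96 (SE 0.34, unadjusted p = 0.0273, limma adjusted p = 0.360), and the adjusted p was 0.139 to 1.0 over the alternatives. It was 1 of 11 rows at an unadjusted p under 0.05, against 11.3% of all genes. In 5 of 11 rows the groups did not overlap, as in 48.5% of all genes: PER1, PER2, CRY1 and CRY2 lay below in TH and NR1D1 above. NR1D1 had 0.53 (SE 0.28), CRY1 -0.55 (SE 0.32), PER2 -0.33 (SE 0.33) and PER1 -0.23 (SE 0.35), none past the test. Without TH1 the values were -0.12 for CRY1 and 0.28 for NR1D1, and without TH2 -0.98 and 0.79. With FPKM-sum scaling NR1D1 turned to -0.07. Without TH1, CRY2 was at -0.63 (unadjusted p = 0.149), and the second CLOCK row was the only one under 0.05, higher in TH at 0.67, against 8.34% of all genes. Without TH2, 4 rows had an unadjusted p under 0.05, CRY1, CRY2 and the BMAL1 row lower and NR1D1 higher in TH, against 22.9% of all genes in that fit. Without TL2 there were 0, against 5.02% of all genes, and CRY2 was at -0.66.

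Between altitudes in Yorkshire pigs, YH to YL, no row had an unadjusted p under 0.05 in limma, as against 5.97% of all genes, and the lowest limma adjusted p was 0.784. Groups did not overlap in 4 of 11 rows, against 36.3% of all genes, with PER2, PER3 and the second CLOCK row below in YH and CRY1 above. PER3 had -0.57 (SE 0.26), PER2 -0.61 (SE 0.33) and DBP -0.78 (SE 0.50). These 3 values turned on the choice of YL pool. Without YL1 they were -0.82, -1.08 and -1.49, and all 3 had an unadjusted p under 0.05 (limma adjusted p = 0.126, 0.0579 and 0.0711), as did 25.3% of all genes in that fit. Without YL2, which holds the kidney markers, they were -0.32, -0.15 and -0.07. PER1, at -0.50 with all libraries, was at -0.94 without YL2 and at -0.05 without YL1. Kidney markers summed to 8989 FPKM in YL2 and to 2.52 FPKM in TL1, the other library with high levels of PER2, PER3 and DBP. The part of kidney RNA in the YL2 levels of these 3 genes was not tested.

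The interaction, which subtracts the altitude difference of Yorkshire pigs from that of Tibetan pigs, asks whether the altitude difference differed between the breeds. CRY2 gave -1.18 (SE 0.48, unadjusted p = 0.0454, limma adjusted p = 0.445, and 0.126 to 1.0 over the alternatives), from -0.96 in Tibetan and 0.23 in Yorkshire pigs, the latter -0.07 without YL2 and 0.52 without YL1. Its unadjusted p stayed under 0.05 in 3 of the 8 fits that leave out a library, and without YL2 the value was -0.89 (unadjusted p = 0.114). It was 1 of 11 rows at an unadjusted p under 0.05, against 10.9% of all genes, and no row had an adjusted p under 0.05, which 0.042% of all genes had. Which row passed turned on the libraries: CRY1, CRY2 and NR1D1 without TH2 (against 22.8% of all genes), the second CLOCK row alone without TH1 (8.01%) and NR1D1 alone, at 0.96, without YL2 (12.8%). There were 0 without TL2, YH1 or YH2, against 5.41%, 5.97% and 6.54% of all genes.

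Other factors of the loop and of its output form the next list. Of 13 such genes, 11 were found and 7 tested, among them NPAS2, NR1D2, HLF, NFIL3, BHLHE40 and BHLHE41. None was called. At an unadjusted p under 0.05 in limma, 1 of the 7 was lower from TH to YH, against 16.2% of all genes. None of the 6 named had such a p in the 4 comparisons. The list's medians were -0.10 and -0.27 between breeds (highlands, then lowlands) and -0.02 and -0.39 between altitudes (Tibetan, then Yorkshire), and the medians that involve YL turned to 0.14 and 0.05 without YL2. BHLHE40, a repressor of clock targets, was highest in mean FPKM at 16.7, followed by NFIL3, which opposes DBP at D-boxes, at 16.3 and NR1D2, a paralog of NR1D1, at 14.8.

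Enzymes that modify or degrade clock proteins were found for 12 of 13 genes, in 13 rows that were all tested, with none called. From TH to YH, 1 row was higher and 2 lower at an unadjusted p under 0.05, against 16.2% of all genes, and in each other comparison 1 row passed it, against 8.94% between the lowland breeds, 11.3% between Tibetan altitudes and 5.97% between Yorkshire altitudes. USP2, a deubiquitinase that is itself a clock output, was at 41.1 and 27.5 FPKM in the TH pools, 30.3 and 23.9 in the TL pools, 14.3 and 17.5 in the YH pools and 29.4 and 22.6 in the YL pools. Both YH libraries were its lowest, as for PER2 and PER3, and TH to YH was 1.04 (SE 0.28, limma adjusted p = 0.177). FBXW11, a ubiquitin ligase subunit that targets PER proteins, had -1.30 (SE 0.48, limma adjusted p = 0.268). That value leaned on TH1, at 0.592 FPKM against 3.997 in TH2. From TH to TL, 1 row was higher, the kinase GSK3B with 1.29 (SE 0.35, limma adjusted p = 0.268). From TL to YL, 1 row was higher, the PER kinase CSNK1E with 0.62 (SE 0.25, limma adjusted p = 0.538), which was 0.37 without YL2 with an unadjusted p of 0.189. Last, from YH to YL, 1 row was lower, USP2 with -0.67 (SE 0.28, limma adjusted p = 0.784), and with -0.85 without YL2.

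Genes known as clock outputs of heart muscle included larger fold changes than the clock genes, in differing directions. Of 9 genes, 7 were found and tested, with none called. At an unadjusted p under 0.05, 2 were lower from TH to YH, 2 lower from TL to YL, and in each breed 1 was higher and 1 lower in the highlands. Of all genes, 16.2% passed between the highland breeds, 8.94% between the lowland breeds, 11.3% between Tibetan altitudes and 5.97% between Yorkshire altitudes. KCNIP2, a subunit of the transient outward potassium channel, was at 15.2 and 13.5 FPKM in the TH pools, 163 and 116 in the TL pools, 119 and 78.4 in the YH pools and 134 and 48.6 in the YL pools. It was low in both TH pools, with a log2 fold change of -2.67 from TH to YH (SE 0.48, limma adjusted p = 0.0942) and of -3.18 from TH to TL (SE 0.48, limma adjusted p = 0.113). PDK4, the kinase that shuts down pyruvate dehydrogenase, was at 183 and 154 FPKM in the TH pools, 6.50 and 34.7 in the TL pools, 303 and 253 in the YH pools and 359 and 77.7 in the YL pools. It was lowest in TL, with -3.36 from TL to YL (SE 0.88, limma adjusted p = 0.322) and 3.37 from TH to TL (SE 0.88, limma adjusted p = 0.261). Without YL2 the TL to YL value was -4.46 (limma adjusted p = 0.178). UCP3, a mitochondrial carrier, had -1.72 from TH to YH (SE 0.22, limma adjusted p = 0.0487).

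PER1 also belongs to genes that are induced within minutes to hours by stress and by glucocorticoids, so these lists were set beside it. Of 12 immediate early genes tested, 9 were higher in TH than in YH at an unadjusted p under 0.05 and 9 were higher in TL than in YL, where 16.2% and 8.94% of all genes passed in either direction, 0 were called, and the medians were 1.67 and 1.70. Without YL2 the count from TL to YL was 9 too. PER1 had 0.51 (SE 0.35) and 0.24 (SE 0.35) in the same comparisons. Of 9 glucocorticoid targets tested, 1 was higher and 1 lower in each of these comparisons, beside the same shares of all genes, with medians of -0.25 and -0.45. The part of handling or of hormones at slaughter in the level of PER1 was not tested.

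Among the 6501 genes with a mean of at least 5 FPKM, the patterns most like that of ARNTL over the 8 libraries were those of SNRNP48 (r = 0.91), C17ORF75 (0.91), PHLDB2 (0.89), ENSSSCG00000006839 (0.88) and GSK3A (0.86). The most opposite were ID1 (-0.95), HAUS2 (-0.93), B3GNTL1 (-0.89), PDE3B (-0.88) and F3 (-0.84). For DBP the most alike were DVL2 (0.96), RPA3 (0.94), LZTFL1 (0.94), SC4MOL (0.93) and ENSSSCG00000021395 (0.93), and the most opposite HSPB6 (-0.98), ENSSSCG00000028736 (-0.97), TSPAN17 (-0.96), SPEG (-0.96) and ANK3 (-0.95). They were picked as extremes of many genes over 8 libraries and carry no test. SPEG and HSPB6 are muscle proteins, and without YL2 their r with DBP were -0.90 and -0.97. The summed level of the heart muscle markers was lowest in YL2, where DBP was highest. It was 37813 FPKM in TL1, where DBP was next highest. The part of the muscle share in these r was not tested.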

How the data were processed

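Gene expression of heart was measured by RNA-seq in 8 libraries, 2 per group. The authors aligned reads to Sscrofa10.2 with TopHat 2.0.9 and deposited FPKM per library, computed with Cufflinks. Beside them the authors deposited a scaled read signal, each gene's reads times 1 factor per library. Dividing the signal by its smallest step gave whole reads, within 0.1 read, for 99.8% of low values, and these served for depth, counting intervals and an added alternative. Group means and ratios (8 columns) were not used. Depth was 15687000 to 26723000 reads on genes.

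Genes reaching 1 FPKM in 2 or more libraries (11913) were fitted with limma 3.58.1 (R 4.3.3, trend on the mean) on log2(FPKM + 1), which understates folds of low genes, with a term per group and all 8 libraries. The p-values were adjusted by the Benjamini-Hochberg method over these genes, and the fit was tested on simulated data. Every member is given, and a difference with its adjusted p where groups do not overlap at an unadjusted p under 0.05. From each other list up to 3 genes by mean FPKM and up to 4 such differences are named, chosen by the same rule. For ARNTL and DBP the 5 genes of highest and of lowest r are named. Members, lists and rules were chosen with earlier results of these data known. Exact Poisson intervals are at 95%. The table itself names 14256 genes, and a gene name table named another 1025. Alternatives were pseudocounts of 0.1 and 0.01, no filter, a mean of at least 10 FPKM, median-ratio and FPKM-sum scaling, no trend, only the compared libraries, a replicate term, each library left out, and, chosen after seeing the data, the scaled read signal. Some genes of the lists are not reported here.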

Additional observations from a re-analysis of the deposited data

How the results depend on the processing

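No clock gene row was called under any alternative run, including an adjusted p under 0.05 with no limit on the fold. The named differences (the BMAL1 row, both CLOCK rows and CRY2) kept their sign under every alternative run. Counts at an unadjusted p under 0.05 moved: TH to YH from 1 to 0 and TL to YL from 2 to 0, each with a mean of at least 10 FPKM and with FPKM-sum scaling, TH to TL from 1 to 0 with FPKM-sum scaling, and YH to YL from 0 to 1 with the scaled read signal. TL to YL also went to 3 with median-ratio scaling. With each library left out in turn, the counts were 0 to 5 from TH to YH, 0 to 2 from TL to YL, 0 to 4 from TH to TL, 0 to 3 from YH to YL and 0 to 3 for the interaction. A group left with 1 library was assumed to vary like the others. Only PER1, CRY2 and NR1D1 pass the filter of 10 FPKM, and the cause of the other shifts was not tested. FPKM-sum scaling moved the median of all genes by -0.47, -0.24, -0.25 and -0.02 in the 4 comparisons in that order, and relative to it 6, 5, 5 and 4 rows were higher. A replicate block left the counts at 1, 2, 1 and 0, with 0 rows called, and the CRY2 interaction had an unadjusted p of 0.0532 there, 0.0513 with no filter and 0.142 with FPKM-sum scaling. Replicate numbers do not pair the libraries: deviations of same-numbered libraries correlated by -0.08 to 0.12. Planned count models were not run, because the scaled signal does not divide into whole reads for every value. Low reads (11 to 104 per library in the rows of ARNTL and CLOCK) limit what can be seen.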
